A study of Mus musculus with 14 samples.

Results

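The 3 fibroblast growth factor (FGF) receptor genes Fgfr1, Fgfr2 and Fgfr3 were examined in newborn mouse eyes together with 7 genes that ERK signalling induces and that feed back on it or carry it on: Spry1, Spry2, Spry4, Dusp6, Etv1, Etv4 and Etv5. Of these 10 genes, 9 were measured by 15 probe sets annotated to that gene alone, out of 20380 single-gene probe sets for 12393 genes on the array. The 2 probe sets of Etv1 were annotated to another gene as well and were left out. The genes were chosen by name and function, with earlier results of these data known, and every one of their single-gene probe sets is described. Total RNA of whole eyes at postnatal day 1 was hybridised to 14 single-colour Affymetrix arrays after amplification of 50 ng. The first experiment held 4 samples of eyes with a lens-conditional knockout (cKO) of Snf2h and 4 of wildtype eyes, all from newborn C57BL/6 mice. The second held 3 samples of Brg1 cKO eyes and 3 of wildtype eyes from P1 mice, all on a mixed background. Smarca5 encodes Snf2h, the motor of ISWI chromatin remodelling complexes, and Smarca4 encodes Brg1, a motor of SWI/SNF complexes. The Cre line is not given in the sources used here, the labels leave unnamed the cells that lost Brg1, and they do not say which samples came from which animals. The p-values measure the spread between these samples, and the small number of arrays limits their precision. In whole eyes, fewer cells of a type and less RNA per cell cannot be told apart.

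FGF ligands bind receptor tyrosine kinases together with heparan sulphate, and the receptors signal through adaptors, RAS, RAF, MEK and ERK. In the lens, FGF signalling is known for driving epithelial cells to become elongated fibre cells, and Fgfr1, Fgfr2 and Fgfr3 act there with overlapping functions. ERK activity induces the ETS transcription factors Etv1, Etv4 and Etv5, and also its own brakes, the sprouty proteins and the phosphatase Dusp6, so the levels of these transcripts are widely used as readouts of the pathway.

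Median intensity over the probe sets ranged over 101 to 114 among the arrays. The deleted genes were measured first. The Smarca5 probe set 1424205_at had log2 levels of 8.72 to 9.05 in Snf2h cKO eyes, against 9.02 to 9.65 in wildtype eyes (log2 change −0.50 ± 0.16 SE, limma adjusted p = 0.188), and the other 2 Smarca5 probe sets gave −0.19 and 0.31. The Smarca4 probe set 1426805_at had 7.06 to 7.92 in Brg1 cKO eyes, against 7.75 to 8.47 in wildtype eyes (−0.74 ± 0.30 SE, limma adjusted p = 0.579), and 1426804_at gave 0.05. Thus no probe set of a deleted gene passed the test in the whole eye, and none could be placed inside or outside a deleted exon. Snf2h cKO replicates 1 and 2 were closer to each other than any other pair of arrays in a group, with an SD of their log2 differences of 0.217, against 0.419 to 0.723 in the other 17 pairs. Over the 15 probe sets described here the SD for that pair was 0.27, against 0.25 to 0.93 in the other pairs. Only Brg1 cKO replicates 1 and 3 (0.25) were closer. Within the Snf2h experiment the pair was again the closest, with 0.38 to 0.93 in the others. For Gapdh, a control transcript, the 3′ minus 5′ difference was 0.77 to 0.99 (log2) in Snf2h cKO eyes, against 1.09 to 4.47 in wildtype eyes, with the highest value in wildtype replicate 3, so this sign of RNA quality separated the Snf2h groups and its part in the results of that experiment was not tested. In the Brg1 experiment the same difference was 0.63 to 0.96 in cKO eyes, against 0.68 to 0.74 in wildtype eyes.

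None of the 15 probe sets passed the test in either knockout, and the values that stood apart were those of Fgfr3 in both knockouts, Fgfr2 and a dim Spry2 probe set in the Brg1 knockout, and Dusp6 and Etv5 in the Snf2h knockout. By probe set 1421841_at, Fgfr3 had 50.2% of its wildtype level after the Snf2h knockout and 49.1% after the Brg1 knockout. A call was a limma p under 0.05 after Benjamini-Hochberg adjustment over all 20380 probe sets. In the Snf2h experiment 0 of 15 were called, where 0% of all probe sets were, and 4 of 15 had an unadjusted p under 0.05, where 17.7% of all probe sets did. Of these 4, 1 was higher and 3 were lower, where 10.1% and 7.58% of all probe sets were. In the Brg1 experiment 0 of 15 were called, where 0.623% of all probe sets were, and 4 of 15 had an unadjusted p under 0.05, where 8.13% of all probe sets did. All 4 were lower and 0 higher, where 3.68% and 4.44% of all probe sets were. The knockout arrays lay wholly outside the range of their wildtype arrays for 3 of 15 probe sets in the Snf2h experiment, where 10.7% of all probe sets did so, and for 4 of 15 in the Brg1 experiment, where 13.4% did. The 3 were 1 above and 2 below, against 6.52% and 4.17% of all probe sets, and the 4 were 0 above and 4 below, against 7.23% and 6.2%. Changes were negative for 8 of 15 probe sets in Snf2h cKO eyes and for 12 of 15 in Brg1 cKO eyes. The median log2 change was −0.03 in Snf2h cKO eyes, equal to the −0.03 of all probe sets, and −0.23 in Brg1 cKO eyes, against −0.01 over all probe sets. Only 5 of the 15 probe sets had a mean log2 level above 6.87, the median over all probe sets, and the fold changes of the other 10, which are dim, may be compressed by background.

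**Figure D1:**
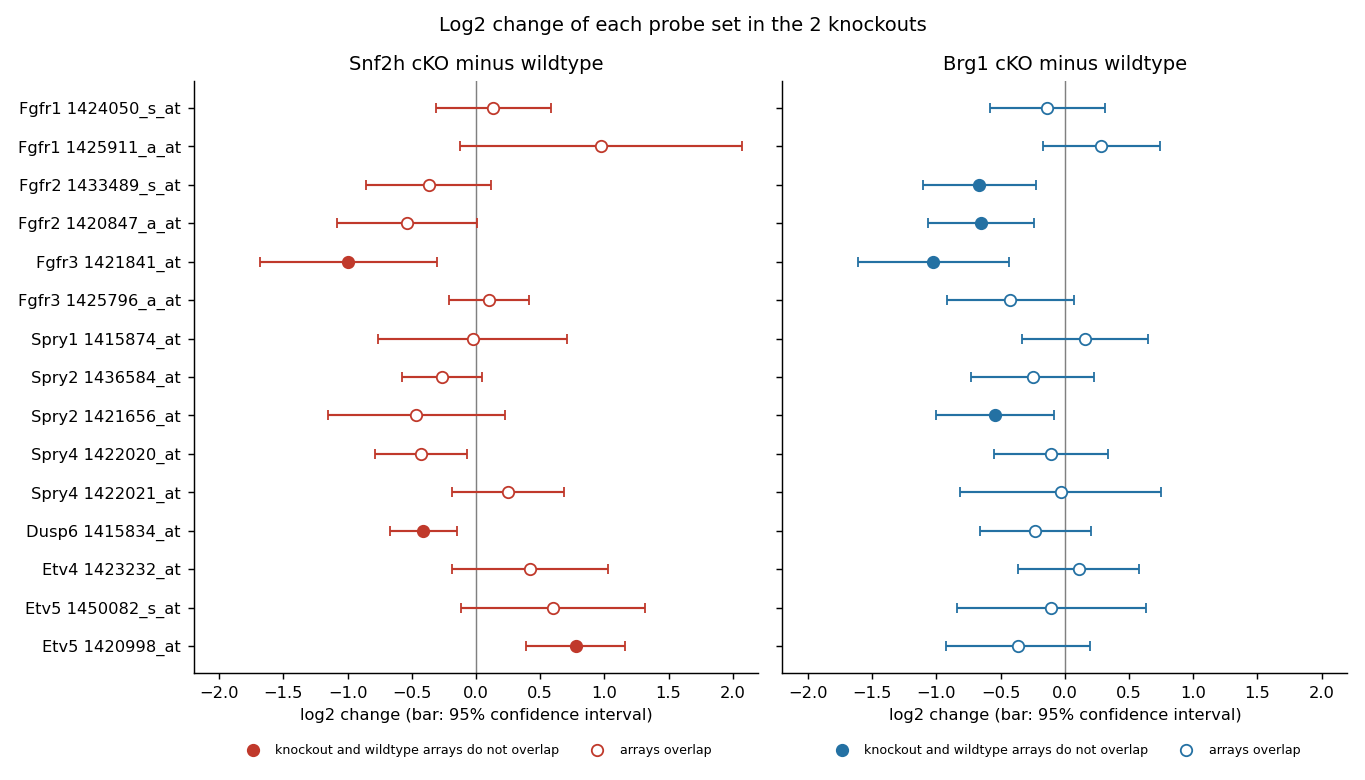
Log2 change of each of the 15 probe sets (rows) in Snf2h cKO against wildtype eyes (left, n = 4 each) and in Brg1 cKO against wildtype eyes (right, n = 3 each), with the 95% confidence interval of the limma fit as a bar. Filled points mark the 3 and 4 probe sets whose knockout arrays lie outside the range of all their wildtype arrays, with Fgfr3 1421841_at among them in both panels.

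Promoter sequences are shown for Fgfr3, Dusp6 and Etv5, the genes whose arrays did not overlap in the Snf2h experiment, because ETS factors bind DNA around a GGAA core. They span 250 bases before to 50 bases after a RefSeq start site on GRCm38.p6. Where the RefSeq table gave 2 starts, the one with more cores was taken. Capitals mark GGAA or its reverse complement TTCC. The Fgfr3 promoter lies at chr5:33722056-33722355 on the plus strand and holds 5 cores, the Dusp6 promoter at chr10:99262981-99263280 on the plus strand holds 6, and the Etv5 promoter at chr16:22438319-22438618 on the minus strand holds 6.
Fgfr3: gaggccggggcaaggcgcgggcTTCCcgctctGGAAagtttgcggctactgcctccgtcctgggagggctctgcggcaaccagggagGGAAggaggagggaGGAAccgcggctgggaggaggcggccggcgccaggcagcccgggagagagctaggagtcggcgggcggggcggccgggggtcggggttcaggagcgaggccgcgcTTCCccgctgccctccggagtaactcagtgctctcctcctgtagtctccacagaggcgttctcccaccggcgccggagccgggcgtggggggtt
Dusp6: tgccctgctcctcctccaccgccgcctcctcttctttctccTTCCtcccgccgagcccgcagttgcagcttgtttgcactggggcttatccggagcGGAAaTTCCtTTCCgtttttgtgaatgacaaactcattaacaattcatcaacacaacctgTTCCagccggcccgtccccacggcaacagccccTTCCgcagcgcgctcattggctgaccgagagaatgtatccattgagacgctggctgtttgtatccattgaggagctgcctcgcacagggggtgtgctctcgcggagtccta
Etv5: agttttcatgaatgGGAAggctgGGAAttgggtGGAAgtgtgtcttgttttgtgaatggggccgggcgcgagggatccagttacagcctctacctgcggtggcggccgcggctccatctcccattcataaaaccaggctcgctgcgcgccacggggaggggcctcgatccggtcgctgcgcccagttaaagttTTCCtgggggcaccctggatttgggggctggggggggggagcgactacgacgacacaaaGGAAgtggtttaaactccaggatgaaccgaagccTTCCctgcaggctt

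The other listed start of Fgfr3 held 1 core, and that of Etv5 held 0. The table held 10 promoters for 7 of the 10 genes (Fgfr2, Fgfr3, Spry1, Spry2, Dusp6, Etv1 and Etv5). On both strands, the GGAA core was present in 96% of all 32841 mouse promoters of this length, so its presence does not set these genes apart. The longer ETS motif CCGGAAG, which contains the core, was in 0 of the 10 promoters and in 8.86% of all. The cAMP response element TGACGTCA and the AP-1 site TGANTCA were also in 0 of the 10, against 1.79% and 7.81% of all promoters. TATAAA was in 1 of the 10, at Etv1, and in 13.6% of all.

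Fgfr3, a receptor that in the eye is also expressed outside the lens, had the largest negative change of the 15 probe sets in each knockout. Its probe set 1421841_at had log2 levels of 6.62, 6.53, 7.85 and 7.70 in Snf2h cKO eyes, against 8.0, 8.30, 7.95 and 8.42 in wildtype eyes. All 4 knockout arrays lay below all 4 wildtype arrays, with replicates 3 and 4 close below the lowest wildtype array and replicates 1 and 2, the near-identical pair, over a log2 unit below it. The log2 change was −0.99 ± 0.31 (SE, 95% interval −1.68 to −0.30, limma adjusted p = 0.177). With replicates 1 and 2 averaged as 1 sample the change was −0.79 (adjusted p = 0.366), and with array weights it was −1.41 (adjusted p = 0.0476). In the Brg1 experiment the same probe set had 6.56, 7.34 and 6.56 in cKO eyes, against 7.84, 8.03 and 7.67 in wildtype eyes. The 3 knockout arrays again lay below all wildtype arrays, replicate 2 nearest to them. The log2 change was −1.02 ± 0.25 (SE, 95% interval −1.61 to −0.44, limma adjusted p = 0.214), and without cKO replicate 2 it was −1.28 (adjusted p = 0.0353). The experiments had no wildtype arrays in common. Fgfr3 1421841_at was the only probe set of the 15 that lay below all wildtype arrays in both knockouts, which 83 of the 20380 probe sets did (0.407%). The difference between the knockouts in its change was −0.03 ± 0.44 (SE, 95% interval −0.98 to 0.92, limma adjusted p = 0.987), an interval that leaves room for nearly a log2 unit either way. The other Fgfr3 probe set, 1425796_a_at, was dim, with levels of 3.77 to 4.12 in Snf2h cKO eyes against 3.70 to 4.02 in wildtype eyes, and of 3.50 to 3.87 in Brg1 cKO eyes against 3.82 to 4.41 in wildtype eyes. Both pairs of groups overlapped, and the changes were 0.10 ± 0.14 and −0.43 ± 0.21 (SE, limma adjusted p = 0.731 and 0.698).

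Fgfr2, a receptor of lens and surface epithelium, was measured by a bright and a dim probe set that gave like changes in the Brg1 experiment. Probe set 1433489_s_at had log2 levels of 9.47, 9.53 and 9.66 in Brg1 cKO eyes, against 10.51, 10.15 and 10.01 in wildtype eyes. All knockout arrays were below all wildtype arrays, and the knockout arrays differed little among themselves. The log2 change was −0.67 ± 0.19 (SE, 95% interval −1.11 to −0.23, 63.0% of wildtype, limma adjusted p = 0.313). Probe set 1420847_a_at had 3.95, 3.84 and 4.18 in Brg1 cKO eyes, against 4.67, 4.79 and 4.48 in wildtype eyes, again without overlap. Its change was −0.65 ± 0.18 (SE, 63.6% of wildtype, limma adjusted p = 0.282). In the Snf2h experiment 1433489_s_at had 8.41, 8.30, 9.06 and 8.61 in cKO eyes, against 9.18, 8.48, 8.99 and 9.20 in wildtype eyes. The groups overlapped, with cKO replicate 3 above wildtype replicates 2 and 3. The change was −0.37 ± 0.22 (SE, 95% interval −0.86 to 0.12, limma adjusted p = 0.399), and that of 1420847_a_at was −0.54 ± 0.24 (SE, limma adjusted p = 0.286). The difference between the knockouts was −0.30 ± 0.31 for 1433489_s_at and −0.11 ± 0.33 for 1420847_a_at (SE, limma adjusted p = 0.728 and 0.919).

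Fgfr1, which is broadly expressed in mesenchyme, neural tissue and lens, overlapped between knockout and wildtype arrays for both of its probe sets in both experiments. Probe set 1424050_s_at ranged over 7.85 to 8.23 in Snf2h cKO eyes against 7.37 to 8.28 in wildtype eyes, and over 7.74 to 8.07 in Brg1 cKO eyes against 7.77 to 8.23 in wildtype eyes. The changes were 0.14 ± 0.20 (95% interval −0.31 to 0.58) and −0.14 ± 0.19 (−0.59 to 0.32; SE, limma adjusted p = 0.747 and 0.904). The dim probe set 1425911_a_at had 5.46, 5.80, 6.05 and 5.63 in Snf2h cKO eyes, against 5.44, 4.41, 3.25 and 5.94 in wildtype eyes. Its wildtype arrays spread over more than 2 log2 units, with replicate 3, the array with the high Gapdh difference, the lowest. The change of 0.97 ± 0.49 (SE, limma adjusted p = 0.330) was thus not larger than that spread. It was 0.468 without wildtype replicate 3, and in the Brg1 experiment it was 0.28 ± 0.19 (SE, adjusted p = 0.784). Of the 6 receptor probe sets, 3 had negative changes in Snf2h cKO eyes (median −0.13) and 5 in Brg1 cKO eyes (median −0.54).

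**Figure D2:**
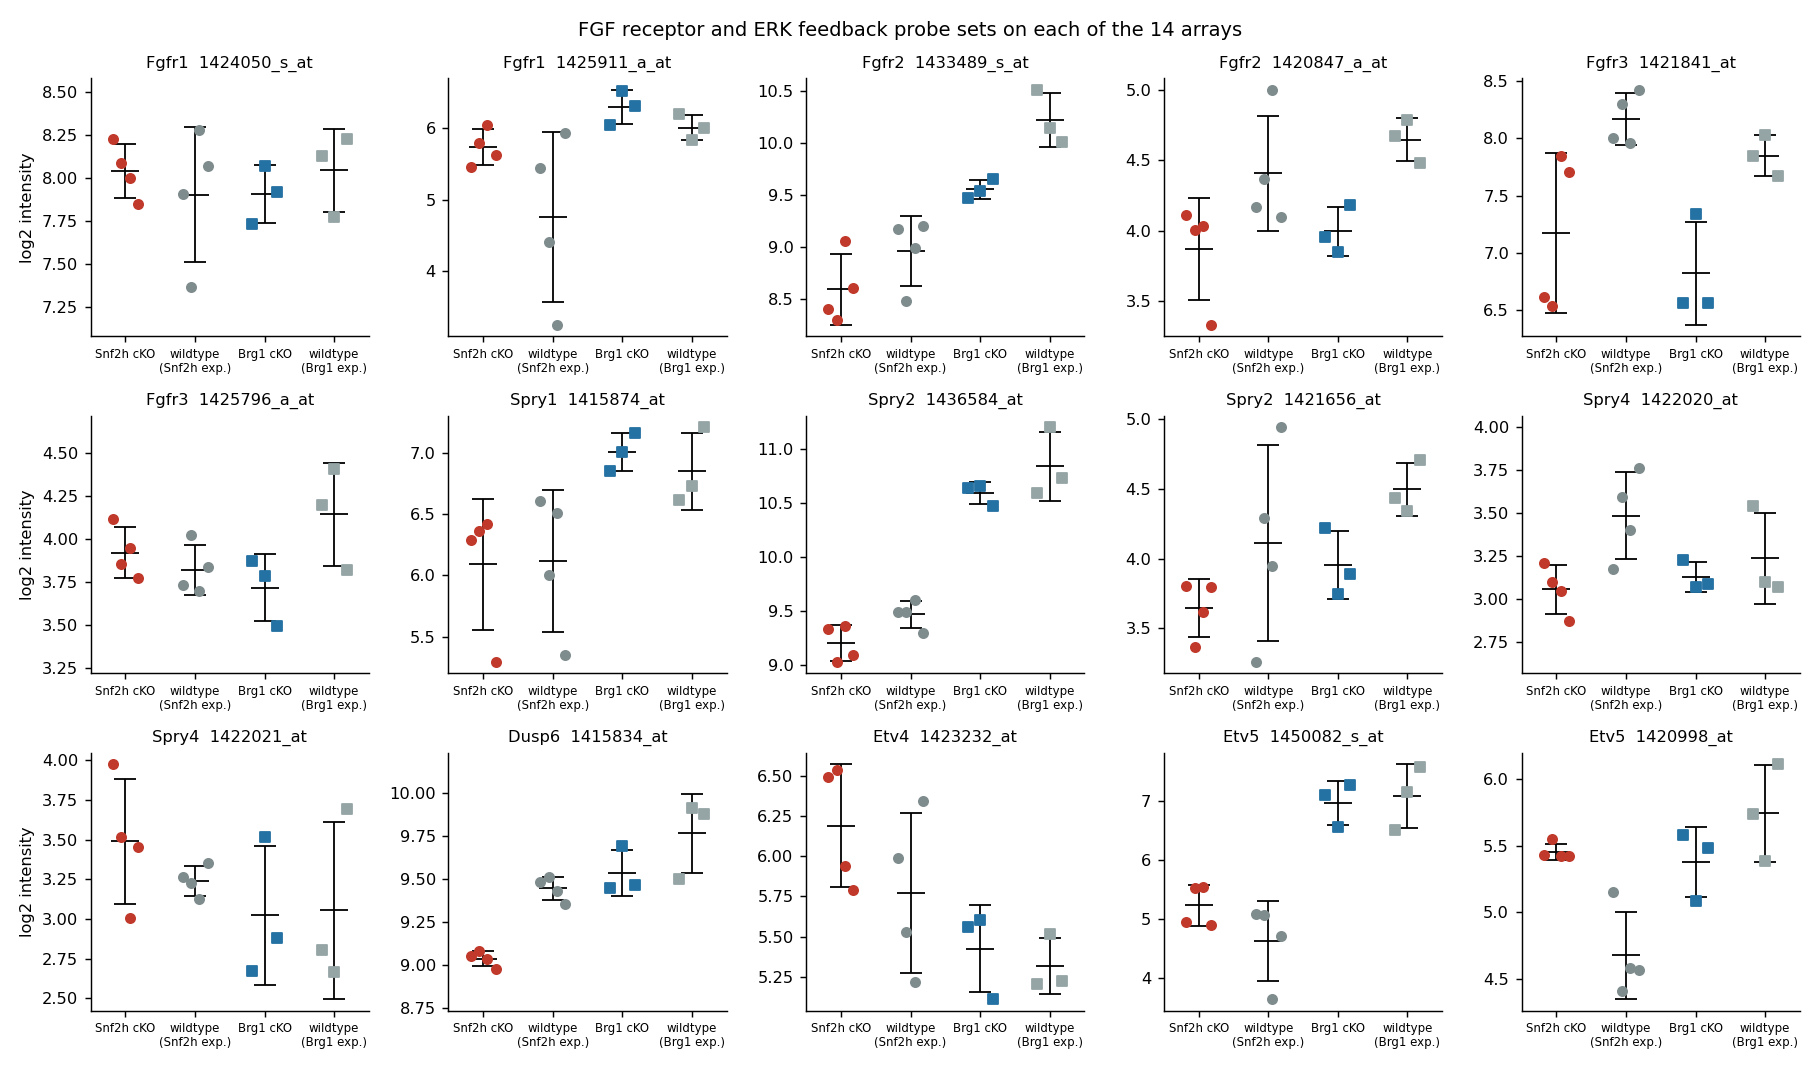
Log2 intensity of the 15 probe sets (panels, each with its own vertical axis that does not start at 0) on the 14 arrays. Points are arrays in replicate order, the long bar is the group mean and the whiskers are 1 SD; Fgfr3 1421841_at and Dusp6 1415834_at show the Snf2h cKO arrays below all their wildtype arrays, and Etv5 1420998_at shows them above.

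The sprouty genes encode inhibitors that ERK signalling induces and that dampen receptor tyrosine kinase signalling upstream of ERK. Spry1 overlapped in both experiments. Its probe set 1415874_at had log2 levels of 6.29, 6.36, 6.42 and 5.30 in Snf2h cKO eyes, against 6.61, 6.00, 6.51 and 5.35 in wildtype eyes. Replicate 4 was the lowest of each group, and the groups covered nearly the same range. The change was −0.03 ± 0.33 (SE, 95% interval −0.76 to 0.71, limma adjusted p = 0.976), and it was 0.16 ± 0.21 (SE, adjusted p = 0.900) in the Brg1 experiment. Spry2 by its bright probe set 1436584_at had 9.34, 9.03, 9.36 and 9.10 in Snf2h cKO eyes, against 9.49, 9.49, 9.60 and 9.30 in wildtype eyes. Only wildtype replicate 4 lay within the knockout range. The change was −0.26 ± 0.14 (SE, 95% interval −0.58 to 0.05, limma adjusted p = 0.353), and in the Brg1 experiment it was −0.25 ± 0.20 (SE, adjusted p = 0.814). The dim Spry2 probe set 1421656_at had 4.22, 3.75 and 3.89 in Brg1 cKO eyes, against 4.44, 4.34 and 4.71 in wildtype eyes. These groups did not overlap, although the nearest arrays were close. The change was −0.54 ± 0.20 (SE, limma adjusted p = 0.514), and −0.46 ± 0.31 (SE, adjusted p = 0.450) in Snf2h cKO eyes, where the groups overlapped.

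Both Spry4 probe sets were dim, with log2 levels under 4 on every array. Probe set 1422020_at had 3.21, 3.10, 3.05 and 2.87 in Snf2h cKO eyes, against 3.18, 3.59, 3.40 and 3.76 in wildtype eyes, an overlap by 1 array. The change was −0.43 ± 0.16 (SE, limma adjusted p = 0.227), while 1422021_at gave 0.25 ± 0.20 (SE, adjusted p = 0.526), so the 2 probe sets of this gene had opposite signs. In the Brg1 experiment they gave −0.11 ± 0.19 and −0.03 ± 0.33 (SE, limma adjusted p = 0.925 and 0.988). Of the 5 sprouty probe sets, 4 had negative changes in each knockout.

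Dusp6 encodes a phosphatase that inactivates ERK in the cytoplasm and is itself induced by ERK. Probe set 1415834_at had log2 levels of 9.05, 9.08, 9.04 and 8.98 in Snf2h cKO eyes, against 9.49, 9.51, 9.43 and 9.36 in wildtype eyes. The groups did not overlap, and within each group the arrays agreed closely, with SDs of 0.04 and 0.07. The log2 change was −0.41 ± 0.12 (SE, 95% interval −0.67 to −0.15, 75.3% of wildtype, limma adjusted p = 0.154). Averaging replicates 1 and 2 gave −0.42 (adjusted p = 0.338). In the Brg1 experiment Dusp6 had 9.45, 9.69 and 9.47 in cKO eyes, against 9.50, 9.92 and 9.88 in wildtype eyes, with cKO replicate 2 above wildtype replicate 1. The change was −0.23 ± 0.19 (SE, 95% interval −0.66 to 0.20, limma adjusted p = 0.813). The difference between the knockouts was 0.18 ± 0.20 (SE, 95% interval −0.24 to 0.60, limma adjusted p = 0.744).

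The ETS factors Etv4 and Etv5 are transcription factors downstream of ERK and are commonly read as FGF target genes. Etv5 by 1420998_at had log2 levels of 5.43, 5.55, 5.42 and 5.42 in Snf2h cKO eyes, against 5.15, 4.41, 4.58 and 4.57 in wildtype eyes. All knockout arrays were above all wildtype arrays, and wildtype replicate 1 was the nearest to them. The change was 0.78 ± 0.17 (SE, 95% interval 0.39 to 1.16, 171% of wildtype, limma adjusted p = 0.102), the smallest adjusted p of the 15 probe sets in this experiment. It passed without wildtype replicate 1 (0.94, adjusted p = 0.0242) and with array weights (0.77, adjusted p = 0.0401), and over all alternatives the adjusted p ranged over 0.0242 to 0.310. In the Brg1 experiment the same probe set had 5.58, 5.08 and 5.48 in cKO eyes, against 5.74, 5.38 and 6.11 in wildtype eyes. The groups overlapped, and the change was −0.36 ± 0.24 (SE, 95% interval −0.93 to 0.20, limma adjusted p = 0.781). The difference between the knockouts was −1.14 ± 0.29 (SE, 95% interval −1.77 to −0.51, limma adjusted p = 0.118), which did not pass. In that comparison 0 of 15 probe sets were called, where 0.687% of all probe sets were, and 2 of 15 had an unadjusted p under 0.05, where 12.6% of all did. Both of these, 1420998_at and the dim Fgfr3 probe set 1425796_a_at, were lower and 0 higher, where 6.48% and 6.07% of all were.

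The second Etv5 probe set, 1450082_s_at, had 4.95, 5.53, 5.54 and 4.90 in Snf2h cKO eyes, against 5.09, 5.07, 3.65 and 4.72 in wildtype eyes. Here the groups overlapped, with wildtype replicate 3 the lowest array. The change was 0.60 ± 0.32 (SE, 95% interval −0.12 to 1.31, limma adjusted p = 0.357), or 0.271 without wildtype replicate 3, and in the Brg1 experiment it was −0.11 ± 0.32 (SE, adjusted p = 0.959). Etv4 by 1423232_at had 6.49, 6.53, 5.94 and 5.79 in Snf2h cKO eyes, against 5.99, 5.53, 5.21 and 6.34 in wildtype eyes. The 2 highest arrays were knockout and the 2 lowest wildtype, with overlap between. The change was 0.42 ± 0.27 (SE, 95% interval −0.19 to 1.03, limma adjusted p = 0.435), or 0.236 without wildtype replicate 3, and it was 0.11 ± 0.20 (SE, adjusted p = 0.930) in the Brg1 experiment. All 3 ETS factor probe sets therefore had positive values in Snf2h cKO eyes, while Dusp6 and 4 of 5 sprouty probe sets had negative ones, and none of them passed the test.

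Markers of lens fibres are given beside the receptor values. Their mean was lower without overlap in Brg1 cKO eyes, while the groups of the Snf2h experiment overlapped. The mean of 18 lens fibre marker genes, relative to the wildtype arrays of the same experiment, was −0.70, −0.72, −0.07 and 0.05 (log2) in Snf2h cKO replicates 1 to 4, against −0.37 to 0.21 in wildtype eyes. Replicates 1 and 2, the near-identical pair, were thus low for both Fgfr3 1421841_at and the fibre markers. Replicates 3 and 4 were near wildtype for the markers. Replicate 3 was above replicate 4 for Fgfr3 (7.85 against 7.70) but below it for the markers. In Brg1 cKO eyes the marker mean was −2.57, −1.06 and −3.75, against −0.13 to 0.12 in wildtype eyes. Brg1 cKO replicate 2 had the smallest deficit of both the markers and Fgfr3. Replicates 1 and 3 had like levels of Fgfr3 (6.56 in each) although their marker means were −2.57 and −3.75. Fgfr2 1433489_s_at was at a like level in all 3 knockout arrays. Summed over the list, intensity was 79834 to 114910 in Snf2h cKO eyes against 87828 to 118880 in wildtype eyes, and 14840 to 67376 in Brg1 cKO eyes against 104130 to 117500 in wildtype eyes. Of the 21 fibre probe sets, 18 were negative in Snf2h cKO eyes with 0 called. At an unadjusted p under 0.05, 4 were lower there, where 7.58% of all probe sets were. In Brg1 cKO eyes all 21 were negative, and 19 were lower at an unadjusted p under 0.05, where 3.68% of all were. Of the 21, 2 were called lower in Brg1 cKO eyes. Those were Gja3, a connexin of fibre gap junctions (−2.89 ± 0.39 SE, limma adjusted p = 0.0297), and Dnase2b, the nuclease that clears fibre nuclei (−4.45 ± 0.68 SE, adjusted p = 0.0438). No value in the table was 0. Other lists split by replicate too. Relative to own wildtype arrays, the mean of the macrophage and neutrophil genes was 0.30 and 0.29 in Snf2h cKO replicates 1 and 2. It was −0.39 and −0.14 in replicates 3 and 4. In Brg1 cKO replicate 2 the mean of the retinal neuron and photoreceptor genes was −0.60, against 0.29 and 0.20 in replicates 1 and 3. The part of the fibre markers in the receptor results was not tested.

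**Figure D3:**
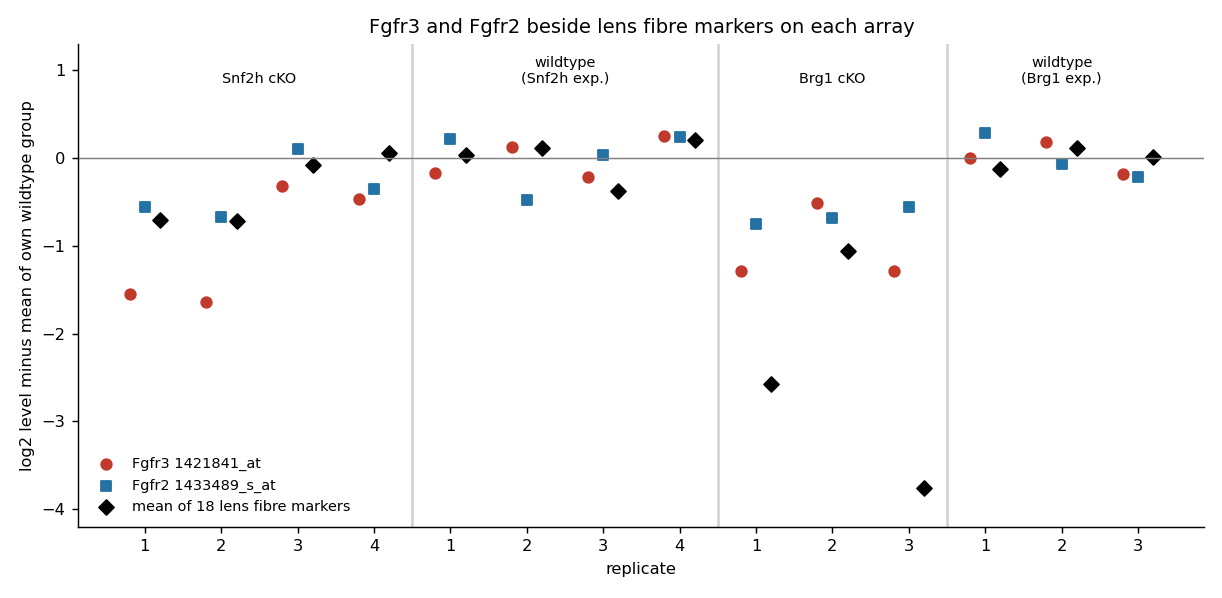
Log2 level of Fgfr3 1421841_at, Fgfr2 1433489_s_at and the mean of 18 lens fibre markers on each of the 14 arrays, each minus its mean in the wildtype group of the same experiment. Within the Snf2h knockout, Fgfr3 and the fibre markers are both lower in replicates 1 and 2 than in 3 and 4, and within the Brg1 knockout replicate 2 is nearest to wildtype for both.

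Marker lists of other eye tissues are given here too, and some of them differed between the groups while others overlapped. The list of 11 lens epithelium genes and lens transcription factors had mean log2 levels of 7.20 to 7.37 in Snf2h cKO eyes against 7.31 to 7.50 in wildtype eyes, and of 7.23 to 7.28 in Brg1 cKO eyes against 7.55 to 7.73 in wildtype eyes. Of its 23 probe sets, 20 were negative in Brg1 cKO eyes and 1 was called, that of Prox1, a transcription factor of fibre differentiation (−1.83 ± 0.20 SE, limma adjusted p = 0.0150). The 15 retinal neuron and photoreceptor genes summed to 16174 to 18241 in Snf2h cKO eyes against 10340 to 12977 in wildtype eyes, without overlap, with 0 of 24 probe sets called, and 12 higher and 2 lower at an unadjusted p under 0.05, where 10.1% and 7.58% of all probe sets were. Both lower ones belonged to Rbpms, a marker of ganglion cells (−0.59 ± 0.17 and −0.86 ± 0.17 SE), whose other 2 probe sets gave 0.22 and 0.33. The 14 genes of stroma and periocular mesenchyme, where Fgfr1 is also expressed, had a median change of −0.46 in Snf2h cKO eyes. Of their 23 probe sets, 20 were negative, 0 called and 9 lower at an unadjusted p under 0.05, where 7.58% of all were. Their sums were 17486 to 20666 in Snf2h cKO eyes against 18689 to 26788 in wildtype eyes, which overlapped. The 14 cornified skin and hair follicle genes had a median change of −1.05 in Snf2h cKO eyes. Of their 17 probe sets, 17 were negative, 0 called and 3 lower at an unadjusted p under 0.05, where 7.58% of all were. Their mean log2 level was 4.13 to 4.32 in Snf2h cKO eyes, against 7.24 in wildtype replicate 3 and 4.27 to 4.79 in the other 3 wildtype arrays. The 14 macrophage and neutrophil genes summed to 7005.6 to 21983 in Brg1 cKO eyes against 1496.1 to 2029.1 in wildtype eyes, with 6 of 18 probe sets called higher. Both probe sets of Krt12, the keratin of corneal epithelium where Fgfr2 is also expressed, were called lower in Brg1 cKO eyes (−4.10 ± 0.29 and −3.70 ± 0.20 SE, limma adjusted p = 0.00214 and 0.000546). Over the whole list of 14 corneal and surface epithelium genes the sums were 6490.6 to 12711 in Brg1 cKO eyes against 10188 to 12181 in wildtype eyes, with 2 of 23 probe sets called higher and those 2 lower. The part of these tissues in the values of the receptors, the sprouty genes, Dusp6, Etv4 and Etv5 was not tested.

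The rest of the pathway was described by 6 lists, and 0 of their probe sets were called in either knockout. The 22 genes of the FGF ligand list (32 probe sets) had median log2 changes of −0.20 in Snf2h cKO eyes and −0.13 in Brg1 cKO eyes. They include Fgf11, Fgf12, Fgf13 and Fgf14, which are intracellular FGF homologues. At an unadjusted p under 0.05 they held 3 higher and 2 lower probe sets in Snf2h cKO eyes, and 0 higher and 3 lower in Brg1 cKO eyes. Over all probe sets the shares were 10.1% higher and 7.58% lower in Snf2h cKO eyes, and 4.44% and 3.68% in Brg1 cKO eyes. The smallest p values were those of Fgf12, an intracellular FGF homologue that binds sodium channels (0.52 ± 0.14 SE), and Fgf22 (−0.64 ± 0.24 SE, other probe set −0.08) in the first, and of Fgf3 (−0.60 ± 0.19 SE, other probe set −0.42) and Fgf15 (−0.58 ± 0.23 SE) in the second. The 13 other receptors and co-receptors (28 probe sets) had medians of −0.15 and 0.08. Among syndecans, the heparan sulphate proteoglycans that present FGFs, Sdc3 gave 0.72 ± 0.14 and Sdc4 0.89 ± 0.23 in Snf2h cKO eyes (SE, limma adjusted p = 0.0888 and 0.130). This Sdc4 probe set was dim (mean log2 level 4.3), and the bright one (10.4) gave 0.23. Other probe sets of Sdc3 gave −0.41 and 0.04. All probe sets of Sdc1 (−0.27 to −0.01) and of Sdc2 (−0.45 to −0.12) were negative in these eyes. In Brg1 cKO eyes Fgfr4, the remaining signalling receptor of the family, gave 0.95 ± 0.24 by 1 of 5 dim probe sets, with the others between −0.08 and 0.30, and Fgfbp1, a carrier protein that releases FGFs from the matrix, gave −1.38 ± 0.45 (SE, limma adjusted p = 0.232 and 0.432). The 10 heparan sulphate synthesis genes (16 probe sets) had medians of −0.07 and 0.11, with Ext2 at 0.63 in Snf2h cKO eyes. There Hs6st2 gave 0.32 by 1 probe set and −0.24 and −0.23 by 2 dim ones. Hs2st1 gave 0.42, 0.32 and −0.02 by its 3 probe sets in Brg1 cKO eyes, and Extl3 gave −0.40 by a dim probe set and 0.19 by a bright one.

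Among the 17 genes of the adaptors and the RAS-RAF-MEK-ERK cascade (36 probe sets), the medians were 0.03 in Snf2h cKO eyes and −0.08 in Brg1 cKO eyes. Sos1, the exchange factor that activates RAS, gave 0.76 ± 0.19 in Snf2h cKO eyes and −0.51 ± 0.21 in Brg1 cKO eyes by the same probe set, 1421885_at (SE, limma adjusted p = 0.121 and 0.602). Its other 2 probe sets gave 0.65 and −0.07 in Snf2h cKO eyes, and −0.58 and −0.02 in Brg1 cKO eyes. The adaptor Crk gave 0.79 ± 0.22 in Snf2h cKO eyes by 1 of its probe sets, with the others between −0.16 and 0.02. Map2k1, which encodes the ERK kinase MEK1, gave 0.67 ± 0.26 in Brg1 cKO eyes (SE, adjusted p = 0.569). The 13 other negative regulators (26 probe sets) had medians of 0.00 and −0.05. Cbl, the ubiquitin ligase of activated receptors, gave 1.19 ± 0.36 and −0.37 ± 0.20 by its 2 probe sets in Snf2h cKO eyes, and Rasal2, a RAS GTPase-activating protein, gave 0.61 ± 0.16. In Brg1 cKO eyes Nf1, a further RAS GTPase-activating protein, gave −0.72 ± 0.27 and −0.10 ± 0.20, and the ERK phosphatase gene Dusp9 gave 0.49 ± 0.19, with its other 2 probe sets at 0.20 and 0.38. The 17 other ERK-induced transcripts (27 probe sets) had medians of −0.16 and 0.00. In Snf2h cKO eyes 18 of the 27 were negative. At an unadjusted p under 0.05, 5 were higher and 4 lower, where 10.1% and 7.58% of all probe sets were. In these eyes the early response gene Klf6 gave 1.06 ± 0.22 and 1.42 ± 0.36 by 2 probe sets (mean log2 levels 6.98 and 5.65 over all arrays). Its brightest probe set (10.02) gave −0.16 ± 0.23. In the same eyes Ccnd1, the D-type cyclin of the G1 phase, gave 0.62 ± 0.23 with its other 2 at −0.29 and −0.05. Among the lower ones, Egr2 gave −1.07 ± 0.41 and −1.26 ± 0.47 by both of its probe sets, and Phlda1 gave −0.63 ± 0.27. In Brg1 cKO eyes the AP-1 subunits Fosl1 and Junb gave 1.94 ± 0.35 and 0.95 ± 0.18 (SE, limma adjusted p = 0.0828 and 0.0994), with the other Fosl1 probe set at 0.52, beside the macrophage and neutrophil markers given above, whose part in these values was not tested.

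**Figure D4:**
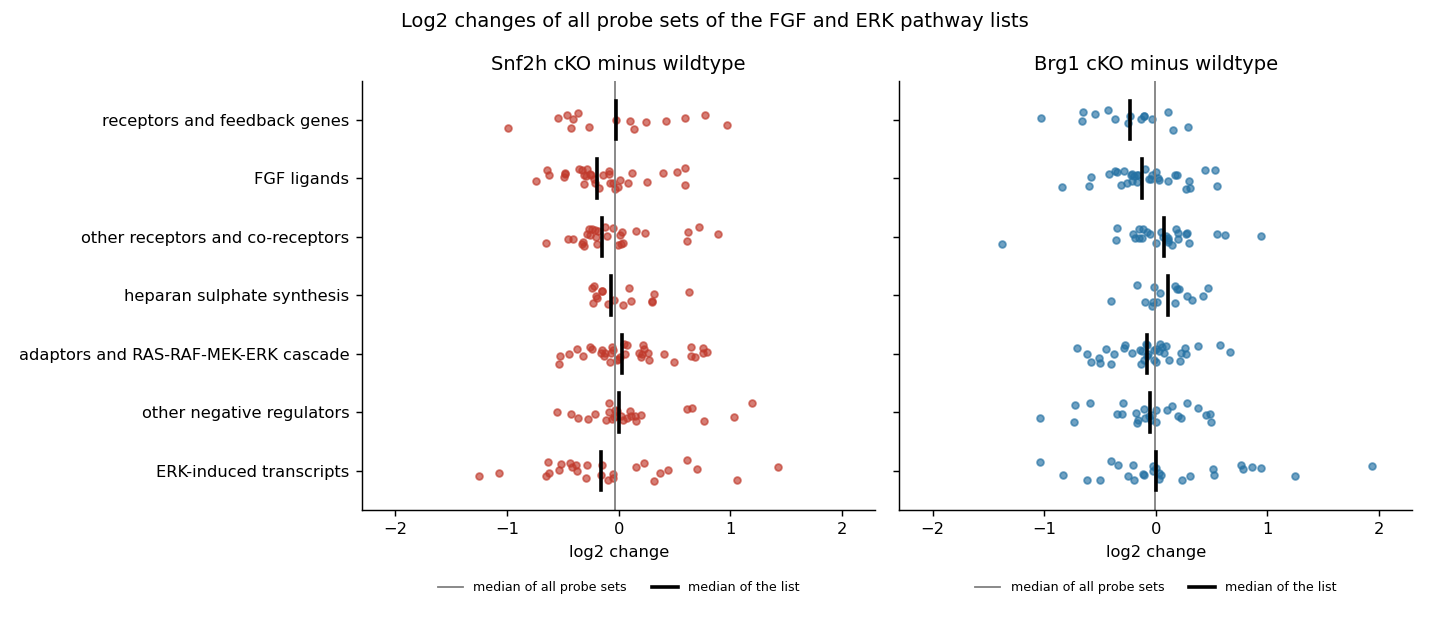
Log2 changes of the probe sets of the receptor and feedback genes and of the 6 pathway lists (rows) in Snf2h cKO against wildtype eyes (left) and Brg1 cKO against wildtype eyes (right). Each point is a probe set with vertical jitter, the black bar is the list's median and the grey line the median of all 20380 probe sets; the points of every list lie on both sides of that line.

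The wildtype eyes of the 2 experiments were of different backgrounds, and experiment and strain cannot be told apart. The values were not tested, and whether both experiments were summarised together is not stated. In 5 of 15 probe sets the mixed background wildtype arrays lay outside the range of the C57BL/6 wildtype arrays, all 5 higher and 0 lower. In either direction this count was no larger a share than the 44.5% of all probe sets that did so. By direction, 21.9% of all were higher and 22.5% lower, so the 5 higher were a larger share and the 0 lower a smaller one. Etv5 by 1450082_s_at averaged 7.07 ± 0.54 in mixed background eyes (SD, n = 3) and 4.63 ± 0.68 in C57BL/6 eyes (SD, n = 4), and by 1420998_at 5.74 ± 0.36 and 4.68 ± 0.33. Spry2 by 1436584_at averaged 10.84 ± 0.32 and 9.47 ± 0.13, Fgfr2 by 1433489_s_at 10.22 ± 0.26 and 8.96 ± 0.33, and Spry1 6.85 ± 0.32 and 6.12 ± 0.58, in the same order of strains. The Spry1 groups were separated by less than 0.01. For all 5 the gap between the wildtype means was larger than the change in either knockout. For these probe sets other than Etv5 1420998_at, all 6 arrays of the Brg1 experiment were above all 8 arrays of the Snf2h experiment. Fgfr3 1421841_at averaged 7.85 ± 0.18 and 8.17 ± 0.23 in the 2 wildtype groups, which overlapped.

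**Figure D5:**
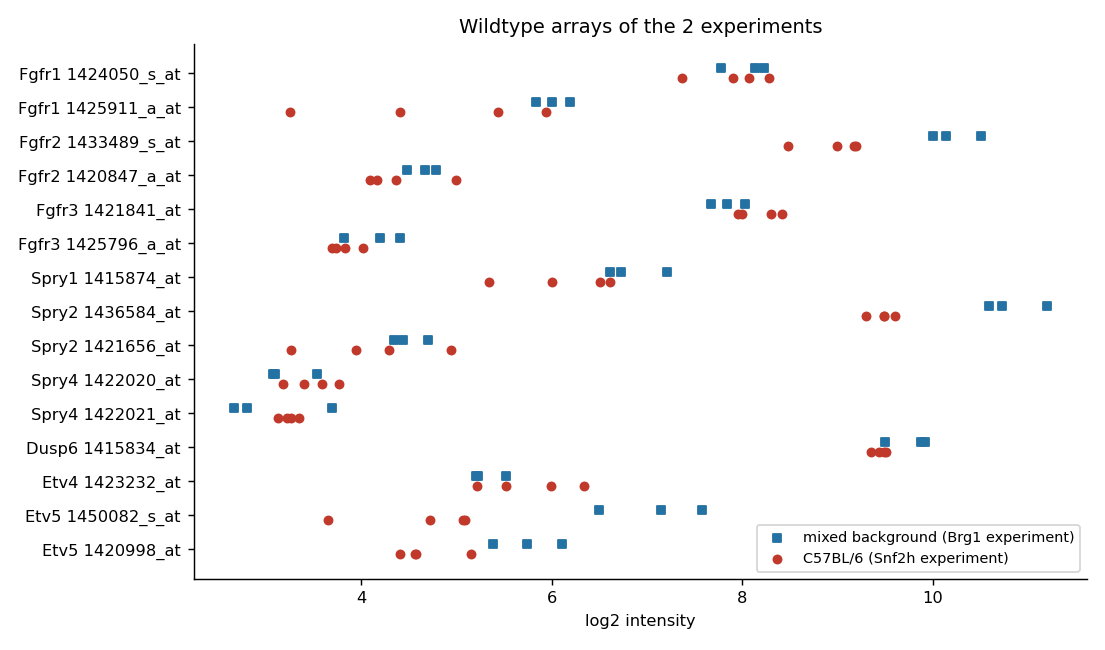
Log2 intensity of the 15 probe sets (rows) on the wildtype arrays of the Brg1 experiment (mixed background, squares, n = 3) and of the Snf2h experiment (C57BL/6, circles, n = 4). The squares lie to the right of all circles for 5 probe sets, those of Fgfr2 1433489_s_at, Spry1, Spry2 1436584_at and both of Etv5.

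Across the 4 groups, Fgfr3 1421841_at was lowest in Brg1 cKO eyes (6.82 ± 0.45, SD, n = 3), then in Snf2h cKO eyes (7.17 ± 0.70, n = 4), wildtype mixed background eyes (7.85 ± 0.18, n = 3) and wildtype C57BL/6 eyes (8.17 ± 0.23, n = 4). Each neighbouring pair in that order overlapped. Fgfr2 1433489_s_at followed another order, lowest in Snf2h cKO eyes (8.59 ± 0.34), then in wildtype C57BL/6 eyes (8.96 ± 0.33), Brg1 cKO eyes (9.55 ± 0.10) and wildtype mixed background eyes (10.22 ± 0.26). Here only the first pair overlapped. Dusp6 was lowest in Snf2h cKO eyes (9.04 ± 0.04), which overlapped with no other group, then in wildtype C57BL/6 eyes (9.45 ± 0.07), Brg1 cKO eyes (9.54 ± 0.135) and wildtype mixed background eyes (9.77 ± 0.23), each overlapping with the next. Between the knockouts, 7 of 15 probe sets were negative in both, where 27.8% of all probe sets were, and 6 of 15 had opposite signs, where 49.1% of all did.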

How the data were processed

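Probe set intensity on a linear scale was deposited by the authors for 14 arrays and had been summarised with RMA, per the submitters' processing notes. The RMA version and whether both experiments were summarised together are not given in the sources used here. The log2 of these deposited intensities was analysed with no offset or further scaling, and no detection calls were used. Of 22690 probe sets, 64 controls, 691 with several genes and 1555 with no gene in the array annotation were left out. RefSeq gene IDs matched 20351 of the 20380 kept, and 0 symbols changed. The array annotation names no build, so no probe set positions are given. Promoters are RefSeq's on GRCm38.p6.

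Groups came from the labels. Each knockout was compared with the wildtype arrays of its own experiment with limma 3.58.1 (lmFit, eBayes) in R 4.3.3, two-sided, with Benjamini-Hochberg adjustment over 20380 probe sets. The difference between knockouts was an interaction contrast over 14 arrays. The scripts were tested on simulated data. Same-numbered samples did not deviate together (correlations −0.23 to 0.13), so the replicate number was not taken as a pairing.

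The genes, lists and tests were chosen with earlier results of these data known. Named were all single-gene probe sets of the 10 genes, of each pathway list the called genes (up to 6) or, with none called, the 2 with the smallest p, and marker genes beside a result. Sdc1 and Sdc2 were named beside the other syndecans, and Egr2 and Phlda1 beside the other ERK-induced transcripts. A rule for genes correlated with called members named none. Alternatives were quantile normalisation (all arrays or within experiments), a filter on dim probe sets, 1 probe set per gene, array weights, a trended robust variance model, a replicate block, 1 fit over all arrays, averaging Snf2h cKO replicates 1 and 2, and leaving out each array in turn.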

Additional observations from a re-analysis of the deposited data

Results flagged for a closer look

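In 3 cases a Snf2h cKO array lay far from the other 3 of its group, by a gap rule that chance meets in about 1 in 20 groups. Fgfr2 1420847_a_at was 3.33 (log2) in replicate 4, against 4.0 to 4.11 in the other 3. Spry1 1415874_at was 5.30 in replicate 4, against 6.29 to 6.42. Etv5 1420998_at was 5.55 in replicate 2, against 5.42 to 5.43 in the other 3, a small gap beside arrays that nearly agreed.

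Of the pathway lists, 1 probe set differed between the knockouts in its change, that of the AP-1 subunit Fosl1, named after its values were seen. Probe set 1417487_at had log2 levels of 3.29, 4.27 and 4.57 in Brg1 cKO eyes, against 2.02, 1.83 and 2.46 in their wildtype eyes, and of 1.90 to 2.04 in Snf2h cKO eyes, against 1.80 to 3.60 in theirs. The difference between the knockout effects was 2.47 ± 0.52 (SE, limma adjusted p = 0.0445), while the other Fosl1 probe set, 1417488_at, gave 0.29 ± 0.29 (adjusted p = 0.721). Levels of both were dim.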

How the results depend on the processing

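The values of the 15 probe sets were recomputed 516 times in all. In 491 cases they kept their direction and their side of the threshold, in 21 they changed sign, in 4 they gained a call and in 0 they lost one. Calls of the 15 were gained in Snf2h cKO eyes with array weights (2 probe sets, Fgfr3 1421841_at and Etv5 1420998_at) and ranged over 0 to 1 when single arrays were left out of either experiment. The weights of the near-identical Snf2h cKO replicates 1 and 2 were not examined. Among the alternatives run, sign changes were seen only for results whose reported value lay between −0.11 and 0.14. With array weights Spry1 in Snf2h cKO eyes gave 0.0808 and the difference between the knockouts for Fgfr3 1421841_at gave 0.272, and with quantile normalisation of all arrays or within experiments Spry4 1422021_at in Brg1 cKO eyes gave 0.0179 and 0.0188. Leaving out single arrays gave −0.282 to 0.240 for Spry1 and −0.0444 to 0.260 for Fgfr1 1424050_s_at in Snf2h cKO eyes. It gave −0.277 to 0.289 for Spry4 1422021_at, −0.191 to 0.0434 for Spry4 1422020_at and −0.392 to 0.146 for Etv5 1450082_s_at in Brg1 cKO eyes, and −0.291 to 0.193 for the Fgfr3 1421841_at difference. Over all probe sets, calls in Snf2h cKO eyes were 0, but 5 under the dim filter, 2 with 1 probe set per gene, 7 with the trended robust variance model, 561 with array weights, 5 in 1 fit over all arrays and 0 to 184 without single arrays. In Brg1 cKO eyes they were 127, but 15 with the filter, 280 in 1 fit over all arrays and 25 to 199 without single arrays. For the difference they were 140, but 7 with the filter, 82 with the near-identical arrays averaged and 66 to 290 without single arrays. With the replicate block they were 0 for Snf2h, 50 for Brg1 and 81 for the difference, with 0 of the 15 probe sets called in each. Leaving out 1 array moved further values by over 1.5 times. In Snf2h cKO eyes Fgfr2 1420847_a_at gave −0.36 without cKO replicate 4 and −0.341 without wildtype replicate 3, Spry2 1421656_at −0.746 and −0.187 without wildtype replicates 1 and 4, and Spry4 1422021_at 0.0858 and 0.408 without cKO replicates 1 and 3. In Brg1 cKO eyes Etv5 1420998_at gave −0.215 without cKO replicate 2 and −0.181 without wildtype replicate 3, Dusp6 −0.361 without wildtype replicate 1, Spry2 1436584_at −0.0723 without wildtype replicate 2 and Fgfr1 1425911_a_at 0.168 without cKO replicate 2. Some values under 0.2 in size moved by more than that too. The causes of these shifts were not tested. Of the 15 probe sets 10 were dim, and without detection calls a level near background cannot be told from a low level.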
